A study of Mus musculus with 9 samples.

Results

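The comparison described here is between mouse limb micromass cultures kept with the caspase inhibitor Z-VAD-FMK (FMK) and cultures kept with its solvent, DMSO. Its members were chosen by their labels: the 3 FMK and the 3 DMSO libraries, 6 of the 9 libraries of the series, and all genes measured in them. Cells came from the fore limbs of mouse embryos at embryonic day 12, were spotted as dense drops, and were grown in a medium with serum, ascorbic acid and β-glycerol phosphate in which limb mesenchyme turns into cartilage. FMK was present at 100 µM for 6 days, and DMSO cultures were run beside it for the same time. No strain or genotype is named in the labels, and both groups share the medium, the culture time and the solvent. The cultures are called biological replicates, without a statement on litters or days, so p-values measure the spread between these samples, which may be technical. Whole cultures were lysed, so a change in a level can reflect fewer cells of a type or less RNA per cell, and these cannot be told apart. A library read the 3′ ends of polyadenylated RNA, and a count stands for 1 read of such an end, not for 1 molecule.

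Caspases are proteases that cut after aspartate. Some of them carry out apoptosis, caspase-8 restrains the necroptosis kinases RIPK1 and RIPK3, and the inflammatory caspases process cytokines and gasdermin D. Z-VAD-FMK is a peptide that binds the active site of many caspases covalently and blocks them. Limb mesenchyme in micromass culture condenses into nodules that deposit a matrix of type II collagen and aggrecan under the control of Sox9. Type I interferons are secreted proteins that act through the receptor IFNAR and factors of the STAT and IRF families, which bind the interferon-stimulated response element (ISRE) before the genes of antiviral defence.

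Library totals ranged from 5659789 to 6836982 counts, with 16588 to 17656 genes at 1 count or more, and 12862 genes passed the filter on low counts and were tested. The labels call the cells limb-derived chondroblasts. With DMSO all 3 cultures held the defining cartilage transcripts. Col2a1, the chain of type II collagen, stood at 1450, 974 and 1522 CPM in replicates 1, 2 and 3. CPM are counts scaled to the library total after its adjustment by a factor per library (TMM). Sox9 stood at 460, 403 and 528 CPM. Macrophage, adipocyte and skeletal muscle transcripts were also present and are described with their lists. The first axis of a principal component analysis held 69.8% of the variance and separated the groups. The second held 12.1% and set replicate 3 of both groups apart from replicates 1 and 2. Same-numbered libraries of both groups deviated together. The main fit did not use this pairing, and a fit with the replicate number as a term (the replicate block) was run beside it.

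In all, 2444 genes (19% of those tested) were called at an adjusted p under 0.05. Of these, 1267 rose (9.85% of the genes tested) and 1177 fell (9.15%) with FMK. With the replicate block 1702 rose and 1591 fell. The shares over all genes tested, 9.85% and 9.15%, are the base against which the counts in the gene lists below are to be read. Changes of at least 2-fold were seen in 500 genes that rose (3.89%) and 514 that fell (4%). With library size as the only scaling, the median log2 fold change over the genes tested was -0.11 in place of 0.00, and 935 genes rose and 1771 fell; changes are relative to the scaling used. The genes that rose held 12.9% to 13.8% of all counts with DMSO and 22.1% to 23.4% with FMK, and the genes that fell held 13% to 13.4% and 7.56% to 8.13%. The most extreme classes were unequal: 36 genes rose and 97 fell by at least 5 on the log2 scale. Calls were more frequent where counts were deeper, with 13.3% of genes under 5 CPM and 31.0% of genes at 100 CPM or more. Groups did not overlap in any library for 4588 genes (35.7%).

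**Figure D1:**
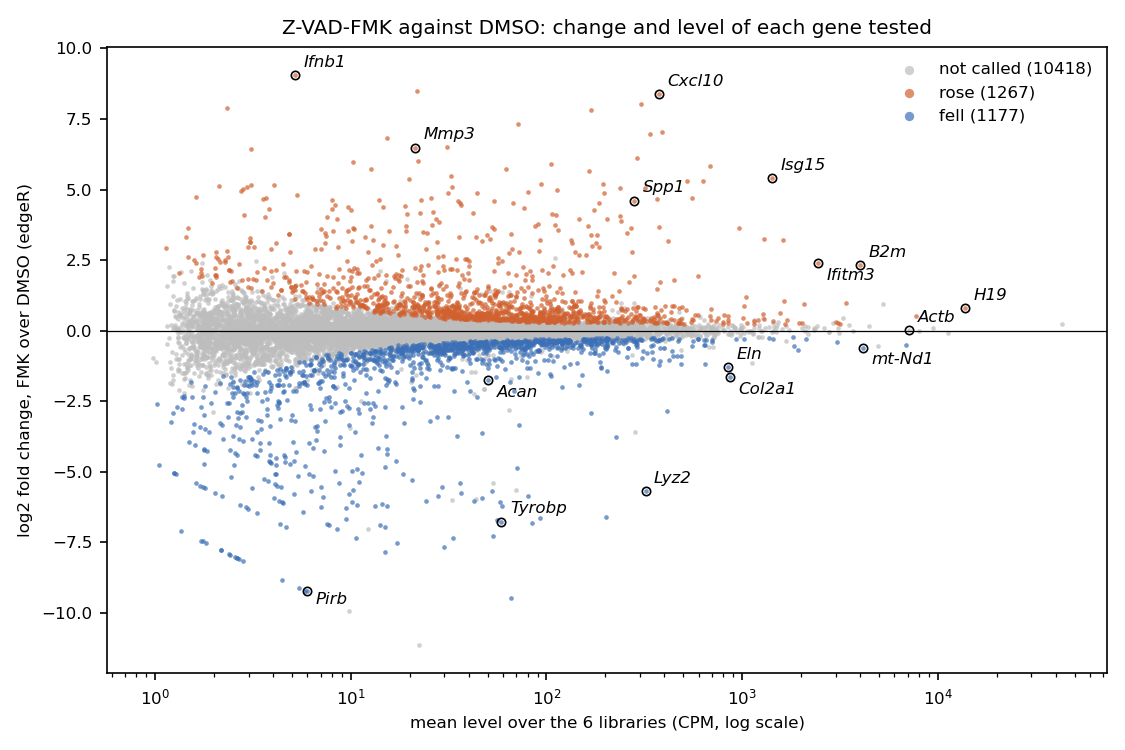
Log2 fold change of FMK over DMSO (vertical axis) against the mean level over the 6 libraries (CPM, log axis) for the 12862 genes tested, with 1267 genes that rose in orange, 1177 that fell in blue and the rest in grey. Ifnb1 and Cxcl10 lie at the top at 9.04 and 8.38, Pirb and Tyrobp at the bottom at -9.24 and -6.77, and Actb near 0.

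Interferon beta was the gene with the largest fitted rise among those at 5 CPM or more. Ifnb1, the gene for this type I interferon (chromosome 4, 88522025 to 88522774, GRCm38), had 0 counts in all 3 DMSO libraries and stood at 10.7, 11.5 and 8.92 CPM with FMK. No DMSO library reached the level of any FMK library, and against a floor of 3 counts over the DMSO group this is at least 69.0-fold higher (adjusted p = 3.52e-06). Other interferon genes were near the detection limit. Ifna2 and Ifna4, which encode interferon alpha forms, had 5 and 2 counts over the FMK group and 0 with DMSO, and Ifnk, Ifnl2 and Ifnl3 had 0 counts in both groups. Of the receptor chains, Ifnar2 rose by 0.59 ± 0.13 (log2 fold change ± SE, adjusted p = 0.00495), from 39.4, 41.2 and 34.1 CPM to 59.2, 61.9 and 51.4 CPM. Ifnar1, its partner chain, was measured at 41.7, 31.2 and 42.5 CPM with DMSO and 32, 29.8 and 37.0 CPM with FMK, and was not called.

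Several transcription factors downstream of the receptor rose. Irf7, a factor that amplifies interferon production, went from 18.1, 24.1 and 13.2 CPM to 597, 749 and 504 CPM (log2 fold change 5.07 ± 0.27, adjusted p = 6.35e-05). Stat2 and Irf9, subunits of the ISRE-binding complex, rose by 3.38 ± 0.18 and 2.09 ± 0.12 on the log2 scale (adjusted p = 2.37e-06 and 9.72e-09). Irf1 stood at 47.4, 47.6 and 51.1 CPM with DMSO and 180, 243 and 156 CPM with FMK. Of 13 members of the IRF and STAT list, 7 rose and 1 fell, with 2 that fell under the replicate block or without FMK replicate 2. The member that fell was Irf8, a factor of the macrophage lineage, at 10.6, 18.9 and 7.30 CPM with DMSO and 1.78, 1.07 and 0.546 CPM with FMK.

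Sensors of foreign or misplaced nucleic acid, listed together with adaptors such as Mavs and enzymes such as Adar, moved with them. Of 14 genes tested, 12 rose, 1 fell (Tlr7) and 1 was not called (Mavs), with a median log2 fold change of 2.48. Ddx58, which encodes the RNA sensor RIG-I, rose from 43.2, 41.9 and 34.8 CPM to 255, 269 and 237 CPM (2.67 ± 0.11, adjusted p = 6.02e-10). Ifih1, the gene of the RNA sensor MDA5, rose from 7.51, 3.49 and 4.44 CPM to 149, 176 and 141 CPM. Within each group these libraries lay close together relative to the distance between groups. Eif2ak2, the kinase PKR, rose by 2.29 ± 0.11 and Adar, which edits double-stranded RNA, by 2.25 ± 0.11. Zbp1, a sensor of Z-form nucleic acid that can engage RIPK3, went from 2.76, 3.49 and 0.715 CPM to 107, 155 and 103 CPM (5.72 ± 0.40, adjusted p = 0.000153).

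Nearly all antiviral effector genes tested rose. All 14 guanylate-binding protein and immunity-related GTPase genes tested rose (median log2 fold change 4.80), as did 13 of 13 genes of ISG15 conjugation (3.21) and 15 of 16 IFIT and OAS genes (4.73). These counts moved by at most 1 when any single library was left out. Irgm1, an immunity-related GTPase, had the smallest p of all genes and a narrow spread, with 19.3, 18.1 and 16.6 CPM against 281, 275 and 273 CPM (3.94 ± 0.10, adjusted p = 1.12e-11). Isg15, a ubiquitin-like protein that is attached to other proteins, rose from 89.1, 66.0 and 43.2 CPM to 2658, 2955 and 2710 CPM (5.39 ± 0.32, adjusted p = 0.000405). Ifit3, an RNA-binding antiviral protein, rose from 4.75, 7.77 and 5.29 CPM to 676, 965 and 688 CPM. The summed level of the IFIT and OAS genes was 78.4 to 165 CPM with DMSO and 4065 to 5634 CPM with FMK. Reads of near-identical members of these families may have been split or dropped in counting, so single-member values are uncertain.

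Presentation on MHC class I followed the same direction in 19 of 21 genes, with a median of 3.20. B2m, the constant light chain of every class I molecule, rose from 1490, 1347 and 1159 CPM to 6220, 7286 and 6429 CPM (2.32 ± 0.10, adjusted p = 2.32e-09). Tap1, a subunit of the peptide pump into the endoplasmic reticulum, rose from 27.4, 25.1 and 22.3 CPM to 389, 442 and 317 CPM. The immunoproteasome subunit Psmb8 rose by 3.87 ± 0.28, while Pdia3 and Calr, general chaperones of the same compartment, were at 0.06 and -0.22 and were not called; Calr was called lower with the replicate block (adjusted p = 0.0394). The class I heavy chains H2-K1 and H2-D1 rose by 3.64 and 3.20. Both calls were lost when only replicates 1 and 2 were fitted (adjusted p = 0.0607 and 0.0729).

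Letters near the gene starts were compared with the response. RefSeq promoter windows (GRCm38.p6, 250 bases before to 50 after the start) matched 9708 of the genes tested. A gene counted as a match if any of its windows held the letters, so shares per gene and per window are unlike measures. An ISRE core was searched on either strand as GAAA, any 2 bases and GAAA again. It was in 3.44% of all 32851 single windows, 3.78% of the 9708 genes and 3.10% of genes not called. Of 378 genes that rose at least 2-fold 18.5% had it, and of 101 that rose at least 8-fold 39.6%. Genes that fell at least 2-fold had it in 3.34%. An NF-kB site was searched on either strand as GGGA, any 2 bases and TTCC. It was in 1.47% of single windows, 1.69% of the 9708 genes and 9.90% of genes that rose at least 8-fold. The interferon gamma element GAS, searched on either strand as TTCNNNGAA, was in 8.30%, 8.04% and 13.9% in the same order, a smaller contrast. The letters GAGGAAGT, bound by the myeloid factor PU.1, were in 3.20% of single windows and 3.43% of the 9708 genes. Of 141 genes that fell at least 8-fold 11.3% had them. Motifs were searched separately, so matches of different motifs can overlap, and a match is a description of the letters and not a site in use.

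Promoters from 250 bases upstream to the start are printed, 5′ to 3′ on the gene's strand, for 5 genes that rose by over 4 on the log2 scale and carry these letters, and for 1 macrophage gene that fell. They were picked with their values known. In the first 5, capitals mark matches to the ISRE core or the NF-kB letters on either strand. Ifnb1 lies at chr4:88522795-88523044 on the minus strand, Cxcl10 at chr5:92348890-92349139 (minus), Isg15 at chr4:156200819-156201068 (minus), Gbp5 at chr3:142496684-142496933 (plus) and Cxcl1 at chr5:90890995-90891244 (plus). In the sixth, Pf4 at chr5:90772185-90772434 (plus), capitals mark the PU.1 letters.
Ifnb1 promoter: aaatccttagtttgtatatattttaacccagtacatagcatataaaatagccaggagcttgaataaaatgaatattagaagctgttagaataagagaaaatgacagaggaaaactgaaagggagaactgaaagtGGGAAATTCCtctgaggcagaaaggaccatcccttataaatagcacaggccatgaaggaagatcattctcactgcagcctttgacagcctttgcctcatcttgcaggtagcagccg
Cxcl10 promoter: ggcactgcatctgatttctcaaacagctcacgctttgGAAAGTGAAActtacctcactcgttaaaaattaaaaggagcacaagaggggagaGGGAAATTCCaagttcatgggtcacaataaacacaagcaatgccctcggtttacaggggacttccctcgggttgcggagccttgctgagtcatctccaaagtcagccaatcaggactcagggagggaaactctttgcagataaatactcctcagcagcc
Isg15 promoter: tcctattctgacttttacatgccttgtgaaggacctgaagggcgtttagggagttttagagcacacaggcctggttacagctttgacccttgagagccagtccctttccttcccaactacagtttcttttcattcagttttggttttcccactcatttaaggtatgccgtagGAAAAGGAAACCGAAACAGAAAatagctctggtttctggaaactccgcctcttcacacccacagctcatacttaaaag
Gbp5 promoter: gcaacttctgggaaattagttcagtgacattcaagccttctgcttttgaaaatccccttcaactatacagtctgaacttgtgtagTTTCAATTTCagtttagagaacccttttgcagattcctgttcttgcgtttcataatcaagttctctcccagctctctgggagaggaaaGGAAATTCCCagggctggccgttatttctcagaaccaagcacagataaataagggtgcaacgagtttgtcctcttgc
Cxcl1 promoter: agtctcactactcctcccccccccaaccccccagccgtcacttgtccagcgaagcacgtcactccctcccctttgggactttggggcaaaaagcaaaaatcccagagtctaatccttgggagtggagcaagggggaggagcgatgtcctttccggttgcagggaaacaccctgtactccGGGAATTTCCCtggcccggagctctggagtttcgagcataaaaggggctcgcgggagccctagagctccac
Pf4 promoter: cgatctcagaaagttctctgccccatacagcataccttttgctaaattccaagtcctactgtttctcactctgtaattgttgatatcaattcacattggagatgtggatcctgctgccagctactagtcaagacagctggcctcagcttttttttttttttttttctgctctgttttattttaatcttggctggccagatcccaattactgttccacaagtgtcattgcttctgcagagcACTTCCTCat
In Ifnb1 the NF-kB letters begin 116 bases before the start, and in Cxcl10 an ISRE core at 213 and NF-kB letters at 159 bases before it. Isg15 has 3 overlapping ISRE cores between 78 and 66 bases upstream. Gbp5, a guanylate-binding protein that rose from 1.23, 0.793 and 0 CPM to 59.7, 79.7 and 44.1 CPM, has both kinds, and Cxcl1 has NF-kB letters and no ISRE core in this window. Pf4, a chemokine of platelets and macrophages, went from 128, 128 and 59.4 CPM to 0, 1.07 and 0.911 CPM (-7.28 ± 0.70, adjusted p = 0.00246; 0.116 with limma-voom).

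**Figure D2:**
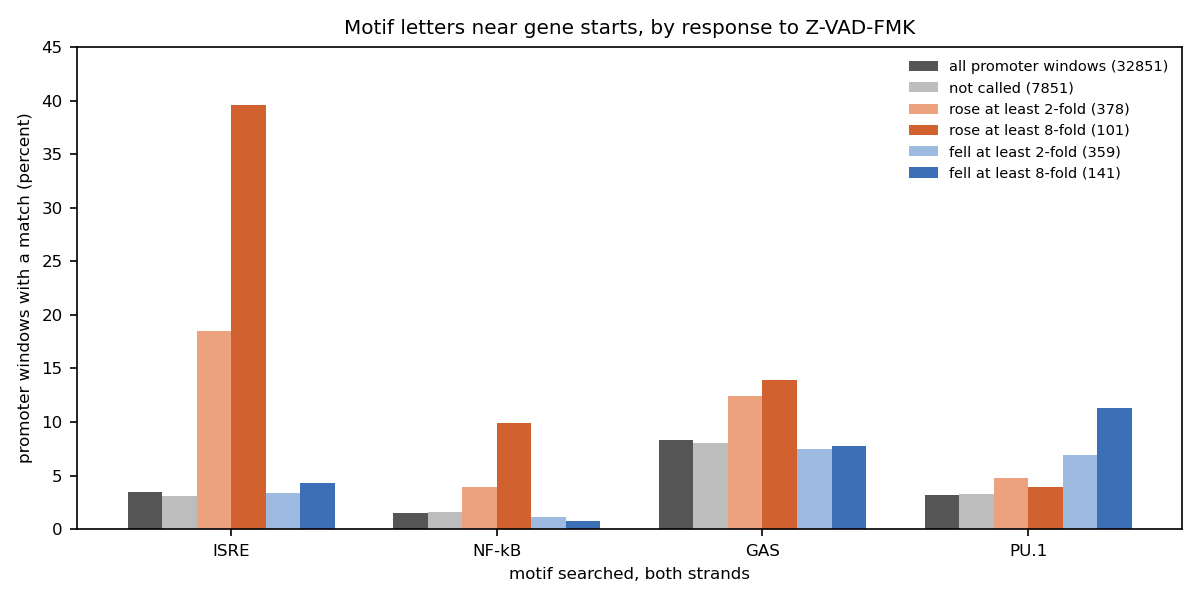
Share (percent, vertical axis) that holds each of 4 motifs, by class of response to FMK, with the number counted in brackets. The class of all promoter windows counts single windows. The other classes count genes with a match in any of their windows, though the axis names windows. The ISRE bar reaches 39.6% for genes that rose at least 8-fold, against 3.10% for genes not called and 3.44% of single windows. The PU.1 bar is highest, 11.3%, for genes that fell at least 8-fold.

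Chemokine genes changed in both directions: of 21 tested, 11 rose and 4 fell (2 with the filter at 5 CPM). Cxcl10, a chemokine for T cells that is induced by interferon, rose from 3.83, 0.952 and 1.86 CPM to 733, 1017 and 488 CPM (8.38 ± 0.57, adjusted p = 0.00113). Ccl5 rose from 3.22, 2.38 and 1.29 CPM to 577, 780 and 454 CPM, and Cxcl9 from 0.766, 0 and 0 CPM to 32.2, 32.9 and 26.4 CPM. The FMK libraries exceeded the DMSO libraries for each of them, as for 18.1% of all genes tested. Cxcl1, which attracts neutrophils, rose from 1.69, 0.952 and 1.29 CPM to 24.3, 39.1 and 20.2 CPM, and Ccl7, which attracts monocytes, from 19, 20.3 and 13.9 CPM to 235, 244 and 157 CPM. The 4 that fell were Ccl9, from 24.2, 14.8 and 27.5 CPM to 5.01, 2.30 and 4.01 CPM, and Ccl3, Ccl12 and Cxcl16. The Ccl12 call was lost without DMSO replicate 1, DMSO replicate 2 or FMK replicate 2 (adjusted p = 0.0857 to 0.125). The 23 macrophage markers summed to 1637 to 3106 CPM with DMSO and 38.8 to 57.6 CPM with FMK, and their part in the chemokines that fell was not tested.

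Other inflammatory genes rose in smaller numbers. Of 20 NF-kB subunits and feedback genes 10 rose and none fell. Nfkbia, the inhibitor that NF-kB itself induces, went from 184, 205 and 193 CPM to 502, 631 and 479 CPM (1.47 ± 0.11, adjusted p = 1.90e-07). Ptgs2, the inducible cyclooxygenase of prostaglandin synthesis, went from 14.1, 10.9 and 11.4 CPM to 71.0, 59.7 and 73.9 CPM (2.48 ± 0.15, adjusted p = 3.30e-08). Saa3, an acute-phase protein made by stromal cells, went from 3.07, 1.11 and 1.14 CPM to 21.7, 27.2 and 21.5 CPM. Of 22 interleukins and receptors 9 rose and 2 fell, among them Il1rl1, the receptor for interleukin-33, at 7.36, 7.45 and 4.72 CPM against 75.8, 76.3 and 43.9 CPM. Restraints on cytokine signalling rose in 7 of 10 cases, including Socs1, which blocks JAK kinases, by 1.70 ± 0.16 and the checkpoint ligand Cd274 by 2.89 ± 0.51. Tnfsf10, which encodes the death ligand TRAIL, had 1 count over the DMSO group and 113 over the FMK group, a ratio of 123 with a 95% counting interval of 21.6 to 4905. Of the 15 TNF family genes tested, 4 rose and 3 fell, and 7 rose with the replicate block; the falls were 1 without DMSO replicate 2, FMK replicate 1 or FMK replicate 2.

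Complement genes moved in both directions, with 3 of 19 higher and 7 lower. The receptors C3ar1 and C5ar1 fell by 5.75 ± 0.34 and 4.92 ± 0.52, and C1qa, a chain of the recognition protein C1q, fell from 162, 217 and 96.9 CPM to 1.29, 4.30 and 2.55 CPM. These lists share genes with the macrophage markers, whose sum fell in the same libraries. C1ra, a protease of the same cascade, rose from 5.83, 8.72 and 8.58 CPM to 30.7, 59.7 and 23.9 CPM. Only 1 complement gene was called higher without DMSO replicate 2 or without FMK replicate 1.

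Of 9 caspase genes tested, which encode the targets of the inhibitor, 3 rose and 1 fell; Casp2, Casp6 and Casp9 were not called. Casp8 rose modestly, from 28.7, 31.2 and 35.8 CPM to 46.2, 48.7 and 52.1 CPM (0.62 ± 0.13, adjusted p = 0.00429). Among the inflammatory caspases Casp4 rose by 2.79 ± 0.30, Casp12 by 1.15 ± 0.20, and Casp1 went from 6.9, 9.52 and 9.16 CPM to 2 counts over the FMK group. That is a ratio of DMSO to FMK of 77.6 with a counting interval of 21.1 to 646. The macrophage markers fell in the same libraries, with a median log2 fold change of -5.85. Their part in the fall of Casp1 was not tested.

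Execution genes of lytic death rose in 4 of 8 cases, and these calls held without any single library; none fell, and 1 fell with the replicate block. Mlkl, the pore-forming protein of necroptosis, went from 3.68, 3.01 and 2.43 CPM to 36.4, 42.1 and 27.5 CPM (3.54 ± 0.24, adjusted p = 9.35e-08). Ripk3, the kinase that activates it, rose from 20.1, 17.8 and 19.7 CPM to 35.2, 33.6 and 35.9 CPM (0.86 ± 0.15). Gsdmd, the pore protein of pyroptosis, rose by 1.56 ± 0.30, and Pycard, the adaptor of the inflammasome, was at -0.13 and was not called. In the BCL2 family 4 of 13 rose and 1 fell, with the BH3-only genes Bbc3 and Bid at 0.68 ± 0.12 and 0.95 ± 0.21; 2 rose without DMSO replicate 1 or FMK replicate 2 or with library size alone, and none fell without DMSO replicate 1 or FMK replicate 1. Of 16 genes for clearing dead cells 2 rose and 5 fell. The rises were 1 with library size alone and without DMSO replicate 1, DMSO replicate 2, FMK replicate 1 or FMK replicate 2, and the falls 1 with limma-voom, 3 without DMSO replicate 2 and 2 without any 1 FMK library. Axl, a receptor for dead cells, rose from 118, 123 and 126 CPM to 349, 451 and 410 CPM. Mertk, a related receptor, fell from 41.5, 35.4 and 31.8 CPM to 23.9, 21.2 and 18.8 CPM. Larger falls were those of Stab1 and Cd36, at -7.66 and -4.60 on the log2 scale. They had 1156 and 636 counts over the DMSO group and 5 and 24 over the FMK group. The macrophage markers fell in the same libraries, and their part in the falls of this list was not tested.

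**Figure D3:**
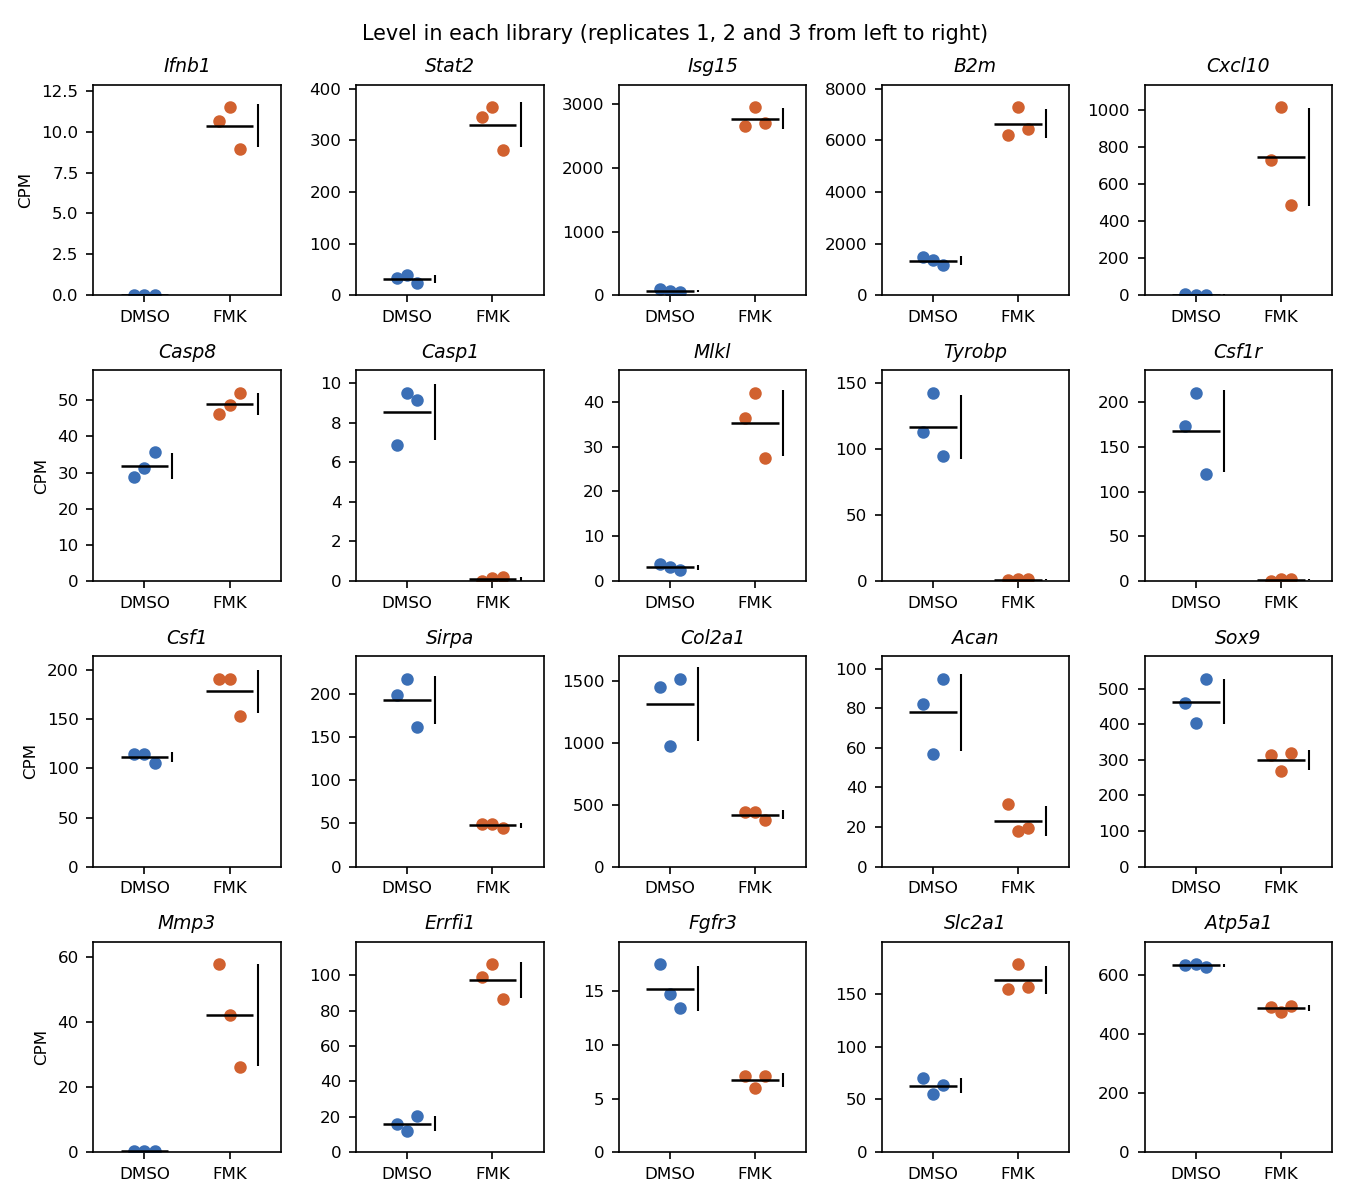
Level in CPM (linear vertical axes from 0) of 20 genes in each of the 6 libraries, DMSO in blue and FMK in orange, with the mean as a line and 1 SD (n = 3) as a bar at the side. The groups do not overlap for any gene shown, nor do they for 35.7% of all genes tested. Ifnb1 is at 0 in every DMSO library and Tyrobp at 0.647 to 1.46 CPM with FMK.

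Transcripts of macrophages were nearly absent with FMK. All 23 markers tested fell, with a median log2 fold change of -5.85, and the summed level went from 2647, 3106 and 1637 CPM to 38.8, 57.6 and 50.8 CPM. At least 22 of the 23 were called without any single library. Tyrobp, a signalling adaptor of myeloid receptors (chromosome 7, 30413760 to 30417585), went from 113, 143 and 94.6 CPM to 0.647, 1.07 and 1.46 CPM (-6.77 ± 0.25, adjusted p = 6.58e-10). Csf1r, the growth factor receptor on which macrophages depend, went from 173, 211 and 120 CPM to 0.323, 2.15 and 2.00 CPM. Spi1, which encodes PU.1, went from 37.9, 40.6 and 29.2 CPM to 0.808, 1.23 and 1.09 CPM. Every FMK library was below every DMSO library for these genes, as for 17.5% of all genes tested. None of the 3 was at 0 counts over the FMK group. Mrc1, the mannose receptor, had 2565 counts over the DMSO group and 3 over the FMK group, a ratio of 785 with a counting interval of 268 to 3808; limma-voom and the fit without FMK replicate 2 did not call it (adjusted p = 0.159 and 0.0941). Of the 4 markers too low to test, Cd163 had 0 counts in both groups, and Clec7a had 46 counts with DMSO and 0 with FMK.

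Myeloid genes outside the list followed. Pirb, Pou2f2 and Pik3cg, an inhibitory receptor, a leukocyte transcription factor and a leukocyte lipid kinase, had 0 counts in all 3 FMK libraries. They stood at 15, 10.8 and 10.0 CPM, at 13, 16.5 and 5.58 CPM and at 12.6, 11.9 and 8.30 CPM with DMSO, so each was at least 72.2-fold, 69.8-fold or 65.8-fold lower. Lcp1, a leukocyte actin bundler, fell from 98.3, 98.0 and 80.5 CPM to 0.970, 1.23 and 2.37 CPM (-5.93 ± 0.22, adjusted p = 2.87e-10). Transcripts of Csf1, a growth factor for these cells, rose from 115, 115 and 106 CPM to 191, 191 and 154 CPM (0.68 ± 0.10, adjusted p = 0.000310). Il34, the other ligand of the receptor Csf1r, was at 2.61, 1.90 and 1.00 CPM against 2.91, 3.38 and 4.19 CPM and was not called. Only RNA was measured, and the part of these ligands in the macrophage falls was not tested. Markers of neutrophils, mast cells, lymphocytes and red cells gave no population to compare, since 21 of 22 were too low to test. Of 7 osteoclast genes 3 fell and 1 rose; Tnfrsf11a, which encodes the receptor RANK, fell from 14.9, 15.5 and 19.2 CPM to 2.10, 1.23 and 0.182 CPM. Falls numbered 5 without DMSO replicate 2, 1 without FMK replicate 2 and 5 with the replicate block.

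**Figure D4:**
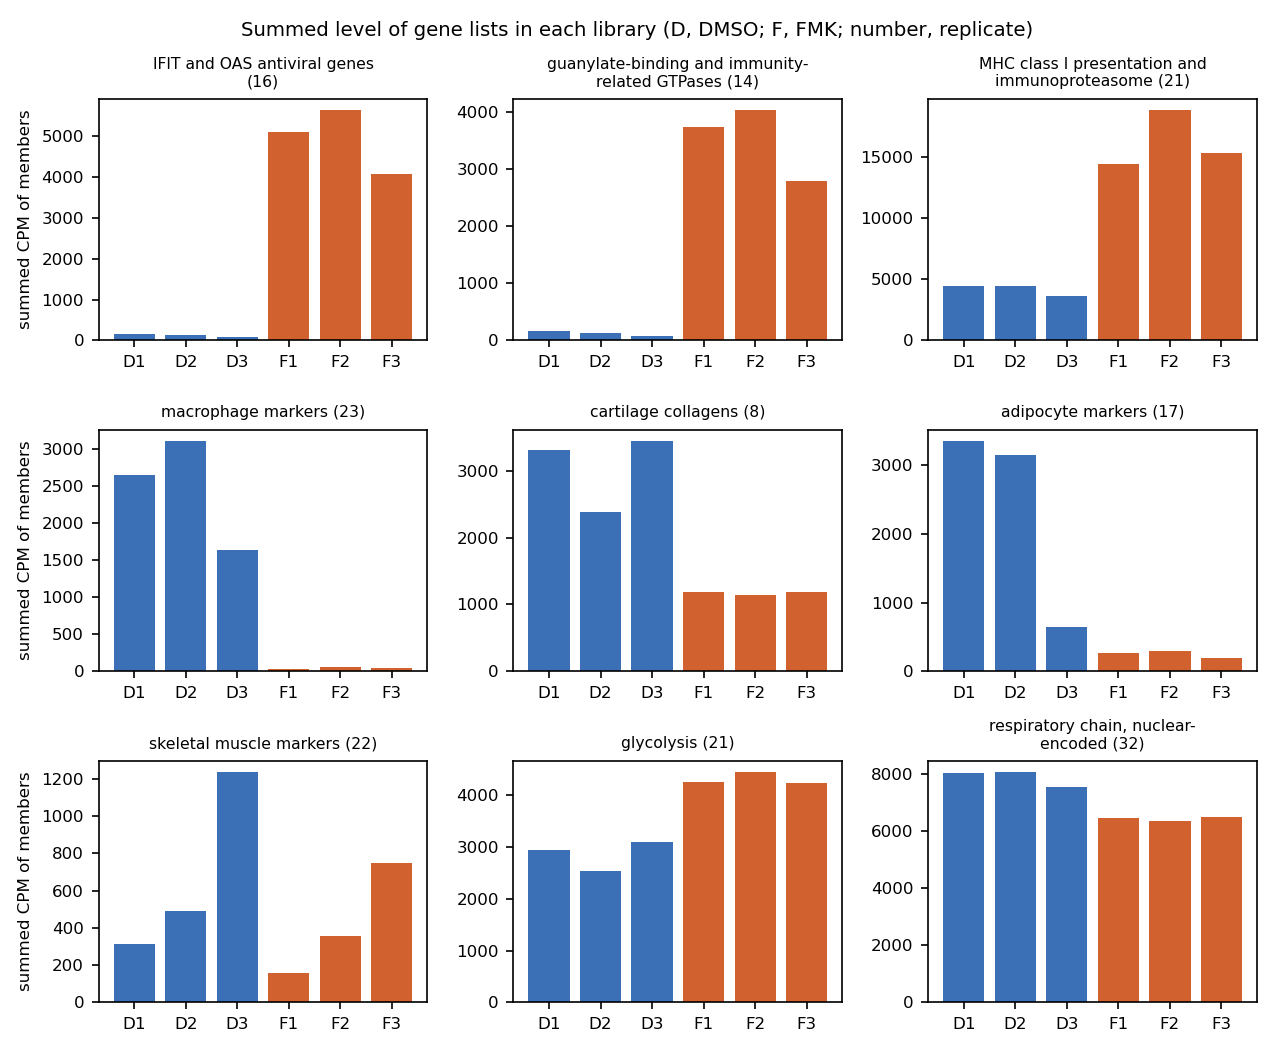
Summed CPM of the members of 9 gene lists (linear vertical axes from 0) in each library, with the number of members tested in brackets, D for DMSO, F for FMK and the replicate number. Macrophage markers fall from 1637 or more to 57.6 CPM or less, and adipocyte and skeletal muscle sums differ between replicate 3 and replicates 1 and 2.

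Cartilage collagens fell as a group: all 8 tested were lower, with a median log2 fold change of -1.27, and at least 6 were called without any single library. Col2a1 (chromosome 15, 97975602 to 98004695) went to 443, 444 and 377 CPM with FMK, against 974 CPM or more with DMSO (-1.64 ± 0.17, adjusted p = 0.000629). Col11a1, which is assembled into the same fibrils, went from 909, 765 and 1006 CPM to 374, 343 and 473 CPM, and Col9a2, a chain on the fibril surface, from 88.3, 69.2 and 108 CPM to 34.6, 29.9 and 39.2 CPM. The lowest DMSO library stayed above the highest FMK library for each, as for 17.5% of all genes tested. Col10a1, the collagen of hypertrophic cartilage, was called at -0.96 ± 0.29 (adjusted p = 0.0324), and the call was lost with DESeq2 (0.0502) and without DMSO replicate 1, DMSO replicate 3, FMK replicate 1 or FMK replicate 2 (0.0527 to 0.171).

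Of 22 cartilage proteoglycans and glycoproteins, 11 fell and 1 rose. Acan, the large proteoglycan aggrecan, fell from 82.0, 56.8 and 95 CPM to 31.7, 17.8 and 19.5 CPM (-1.76 ± 0.27, adjusted p = 0.00345). Hapln1, the link protein that ties aggrecan to hyaluronan, fell from 135, 86.1 and 132 CPM to 51.4, 44.8 and 43.9 CPM, and Cilp2 from 311, 267 and 234 CPM to 106, 115 and 109 CPM. The member that rose was Prg4, lubricin of the joint surface, from 8.58, 6.50 and 14.0 CPM to 130, 103 and 45.5 CPM. It lost the call with the replicate block (adjusted p = 0.108), with limma-voom (0.0675) and without DMSO replicate 1, DMSO replicate 2 or FMK replicate 2 (0.0651 to 0.0888).

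Of 16 chondrogenic transcription factors 4 fell and none rose (1 rose with the replicate block). Sox9 fell to 314, 268 and 319 CPM (-0.63 ± 0.11, adjusted p = 0.000818), and its partner Sox6 from 25.9, 36.5 and 27.8 CPM to 12.1, 11.7 and 12.4 CPM (-1.32 ± 0.18). Sox5 was not called, nor was Runx2, which drives hypertrophy and bone formation, at 15.3, 21.6 and 25.6 CPM against 22.3, 20.7 and 25.7 CPM. Nfatc2, a factor of the NFAT family, fell from 8.89, 4.44 and 2.29 CPM to 0.323, 1.07 and 0.364 CPM (-3.07 ± 0.66, adjusted p = 0.00408). Of 24 genes that build glycosaminoglycan chains 7 fell and 2 rose; 2 fell without DMSO replicate 3 or FMK replicate 2 and 3 without FMK replicate 1. None rose without DMSO replicate 1, DMSO replicate 2 or FMK replicate 2, with DESeq2 or with library size alone. Among 12 hypertrophy and hedgehog genes 5 rose and 2 fell, with log2 fold changes from -4.05 to 4.60 over the list. Falls numbered 1 with the filter at 5 CPM or with replicates 1 and 2 only. Spp1, the mineral-binding protein osteopontin that many stressed cells also make, rose from 23.1, 18.6 and 24.8 CPM to 791, 506 and 320 CPM (4.60 ± 0.45, adjusted p = 0.00371), and Enpp1, which makes the mineralization inhibitor pyrophosphate, rose from 13.3, 13 and 12.4 CPM to 61.6, 59.3 and 49.2 CPM.

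Of 9 bone matrix and osteoblast genes 1 fell, near the share over all genes tested (9.15%). It was Postn, from 319, 377 and 347 CPM to 197, 267 and 242 CPM. Col1a1 was measured at 10660, 11016 and 13077 CPM with DMSO and 11132, 10411 and 11584 CPM with FMK, with a 95% interval of its log2 fold change of -0.24 to 0.11. Among 34 interstitial matrix genes 7 rose and 4 fell, with 15 and 8 in the fit with the replicate block 13 that rose without FMK replicate 3, and 13 and 7 with no low-count filter. Eln, the elastic fibre protein, fell from 1132, 1425 and 1055 CPM to 442, 496 and 545 CPM (-1.28 ± 0.12, adjusted p = 1.16e-05). Of 15 basement membrane genes 7 rose and 1 fell, with 4 that rose without DMSO replicate 1 or FMK replicate 2. Agrn, a heparan sulfate proteoglycan, rose from 89.4, 83.0 and 85.6 CPM to 374, 391 and 310 CPM (2.06 ± 0.10, adjusted p = 3.99e-09). Tnmd, a glycoprotein of tendon, fell from 212, 243 and 246 CPM to 52.4, 52.8 and 77.9 CPM.

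Among enzymes that cut the matrix, Mmp3, encoding stromelysin-1 (chromosome 9, 7445822 to 7455975), went from 0.307, 0.476 and 0.572 CPM to 57.9, 42.4 and 26.4 CPM (6.48 ± 0.41, adjusted p = 5.31e-07). Timp1, an inhibitor of these enzymes, rose from 108, 98.3 and 140 CPM to 507, 372 and 448 CPM (1.93 ± 0.15). Mmp13, the collagenase of hypertrophic cartilage, was at 1.53, 2.70 and 0.429 CPM against 30.7, 17.8 and 8.38 CPM (3.62 ± 0.68, adjusted p = 0.0108), a call lost with limma-voom (0.0781) and without DMSO replicate 1 (0.0749). Of 16 metalloproteinases and inhibitors 4 rose and 1 fell (2 with the replicate block or without DMSO replicate 3); 2 rose without DMSO replicate 1, and Mmp9, the 1 that fell, was not called without DMSO replicate 1 or any 1 FMK library (0.0885 to 0.134), with limma-voom (0.104) or with no low-count filter (0.0563). Of 18 ADAMTS and ADAM proteases 5 rose and 4 fell (6 with the replicate block), with a median log2 fold change of -0.135. Rises numbered 2 without DMSO replicate 2 or FMK replicate 2, and 3 without FMK replicate 3 or with replicates 1 and 2 only. The aggrecan-cutting protease Adamts4 rose from 15.2, 13.5 and 15.6 CPM to 27.0, 25.9 and 26.0 CPM (0.83 ± 0.16, adjusted p = 0.00221).

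Signalling genes showed 1 direction in the EGF receptor and early response lists and mixed directions elsewhere. Of 10 EGF receptor ligands and feedback genes 6 rose, and 3 rose without DMSO replicate 1, DMSO replicate 2 or FMK replicate 2, or with the filter at 5 CPM. Errfi1, an inhibitor that this receptor induces, rose from 16.1, 12.1 and 20.7 CPM to 99.1, 106 and 86.5 CPM (2.57 ± 0.17, adjusted p = 2.19e-07), and the ligand Hbegf rose from 21.9, 18.1 and 27.3 CPM to 41.2, 49.1 and 70.7 CPM. Of 29 immediate early genes and MAPK feedback genes 15 rose and none fell (1 fell with the replicate block or without FMK replicate 3). Jun, a subunit of the AP-1 factor, rose from 77.3, 73.3 and 83.6 CPM to 203, 201 and 197 CPM (1.36 ± 0.09, adjusted p = 9.64e-08), and Dusp1, a MAPK phosphatase, by 2.28 ± 0.26.

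In the BMP pathway, which promotes chondrogenesis, 9 of 27 genes fell and 4 rose, with 2 that rose without DMSO replicate 2 or FMK replicate 2. Id2, a direct target, fell from 239, 244 and 191 CPM to 132, 138 and 116 CPM (-0.80 ± 0.11, adjusted p = 0.000103). The antagonist Chrdl1 fell as well, from 39.7, 35.5 and 36.1 CPM to 10.8, 10.1 and 13.7 CPM, while the ligand Bmp2 rose from 13.8, 16 and 18.2 CPM to 33.8, 35.6 and 26.6 CPM. Ligand, antagonist and target thus did not share a direction. Among FGF genes the receptors Fgfr2 and Fgfr3 fell by 1.04 ± 0.12 and 1.18 ± 0.23 on the log2 scale, and Etv4, a target, rose by 1.68 ± 0.29. In the Wnt list 5 of 26 fell and 3 rose, where 9.15% and 9.85% of all genes tested did. Falls numbered 8 under the block, 2 without DMSO replicate 1 and 3 without FMK replicate 2 or FMK replicate 3. The secreted modulator Sfrp2 fell from 661, 521 and 543 CPM to 338, 298 and 285 CPM and the agonist Rspo2 rose from 131, 135 and 136 CPM to 224, 237 and 175 CPM. TGF-beta genes gave 5 of 23 that rose and 1 that fell, with 10 and 2 under the block and 2 or 3 that rose without DMSO replicate 2, FMK replicate 1 or FMK replicate 2. The fall was not called without DMSO replicate 1, DMSO replicate 2 or any FMK library.

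Genes that pattern the limb were higher in 13 of 28 cases and lower in none. With library size as the only scaling 8 rose and none fell, and 6 to 8 rose without DMSO replicate 1, DMSO replicate 2, FMK replicate 2 or FMK replicate 3. Prrx1, a factor of early limb mesenchyme, rose from 310, 327 and 323 CPM to 450, 459 and 413 CPM (0.46 ± 0.08, adjusted p = 0.00100). Msx1, which marks undifferentiated limb cells, rose from 17.6, 31.6 and 35.1 CPM to 63.9, 77.4 and 63.6 CPM (1.28 ± 0.23), and Hoxd13, a factor of the digits, by 0.50 ± 0.11. The median over the 28 genes was 0.34. The medians of the interferon effector lists were 3.21 or more.

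Adipocyte and skeletal muscle markers differed between replicates. The 17 adipocyte genes summed to 3345, 3146 and 650 CPM with DMSO and 272, 304 and 202 CPM with FMK, so DMSO replicate 3 lay far below the other DMSO libraries. All 17 had a negative fold change and 7 were called, against 17 without DMSO replicate 3 and also with only replicates 1 and 2, 14 with the replicate block and 16 with DESeq2. With other libraries left out 1 to 4 were called, and limma-voom called 1. Lpl, lipoprotein lipase, was at 975, 889 and 315 CPM against 116, 121 and 64.5 CPM (adjusted p = 0.0397). The call held without DMSO replicate 3 and was lost without any other single library (0.109 to 0.125), with no low-count filter (0.0629) and with limma-voom (0.0632). Slc2a4, the insulin-regulated glucose transporter, was called in every fit, at 18.4, 17.9 and 10.3 CPM against 2.59, 1.23 and 2.55 CPM. Skeletal muscle markers ran the other way across replicates, with sums of 316, 489 and 1235 CPM with DMSO and 156, 354 and 749 CPM with FMK. Of 22 tested 1 fell, 12 fell with the replicate block, and none fell without any 1 of the DMSO libraries or without FMK replicate 2. Of 15 endothelial markers 5 could be tested, and 3 of these rose (1 without FMK replicate 1), with sums of 56.9 to 61.2 CPM with DMSO and 77.2 to 99.8 CPM with FMK. The other 10 were too low to test, among them Pecam1 with 2 and 5 counts and Cdh5 with 0 and 6.

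Energy metabolism moved in opposite directions. Of 21 glycolysis genes 16 rose and 2 fell; 13 to 17 rose when any single library was left out, and the 2 falls, Pfkm and Aldoc, were not both called in any of those fits. Slc2a1, the main glucose transporter, rose from 70.1, 55.5 and 63.4 CPM to 155, 178 and 156 CPM (1.37 ± 0.11, adjusted p = 5.50e-07). Pkm, pyruvate kinase, rose from 516, 448 and 572 CPM to 844, 897 and 886 CPM, and Slc16a3, which exports lactate, from 39.9, 29.7 and 53.5 CPM to 119, 123 and 117 CPM. Of 17 hypoxia-responsive genes 11 rose and none fell (7 without DMSO replicate 2), including Ero1l by 1.36 ± 0.13.

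The nuclear-encoded respiratory chain showed small falls. Of 32 genes tested 18 fell and none rose, with a median of -0.30 and every fold change negative, between -0.50 and -0.06. Atp5a1, a subunit of ATP synthase, fell from 634, 635 and 627 CPM to 491, 475 and 494 CPM (-0.38 ± 0.07, adjusted p = 0.00225), and Ndufb3, of complex I, from 191, 200 and 199 CPM to 137, 148 and 133 CPM. The spread within groups was small for these abundant genes. The number called was 26 with the block, 28 with library size alone and 5 to 7 without DMSO replicate 1, DMSO replicate 2, FMK replicate 1 or FMK replicate 2. Of the transcripts of the mitochondrial genome 3 of 7 fell (1 without DMSO replicate 1, FMK replicate 2 or FMK replicate 3; 1 rose without DMSO replicate 1 or with the block), and mt-Nd1 stood at 5388, 4300 and 5351 CPM against 3406, 2720 and 3740 CPM (-0.61 ± 0.13, adjusted p = 0.0104).

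**Figure D5:**
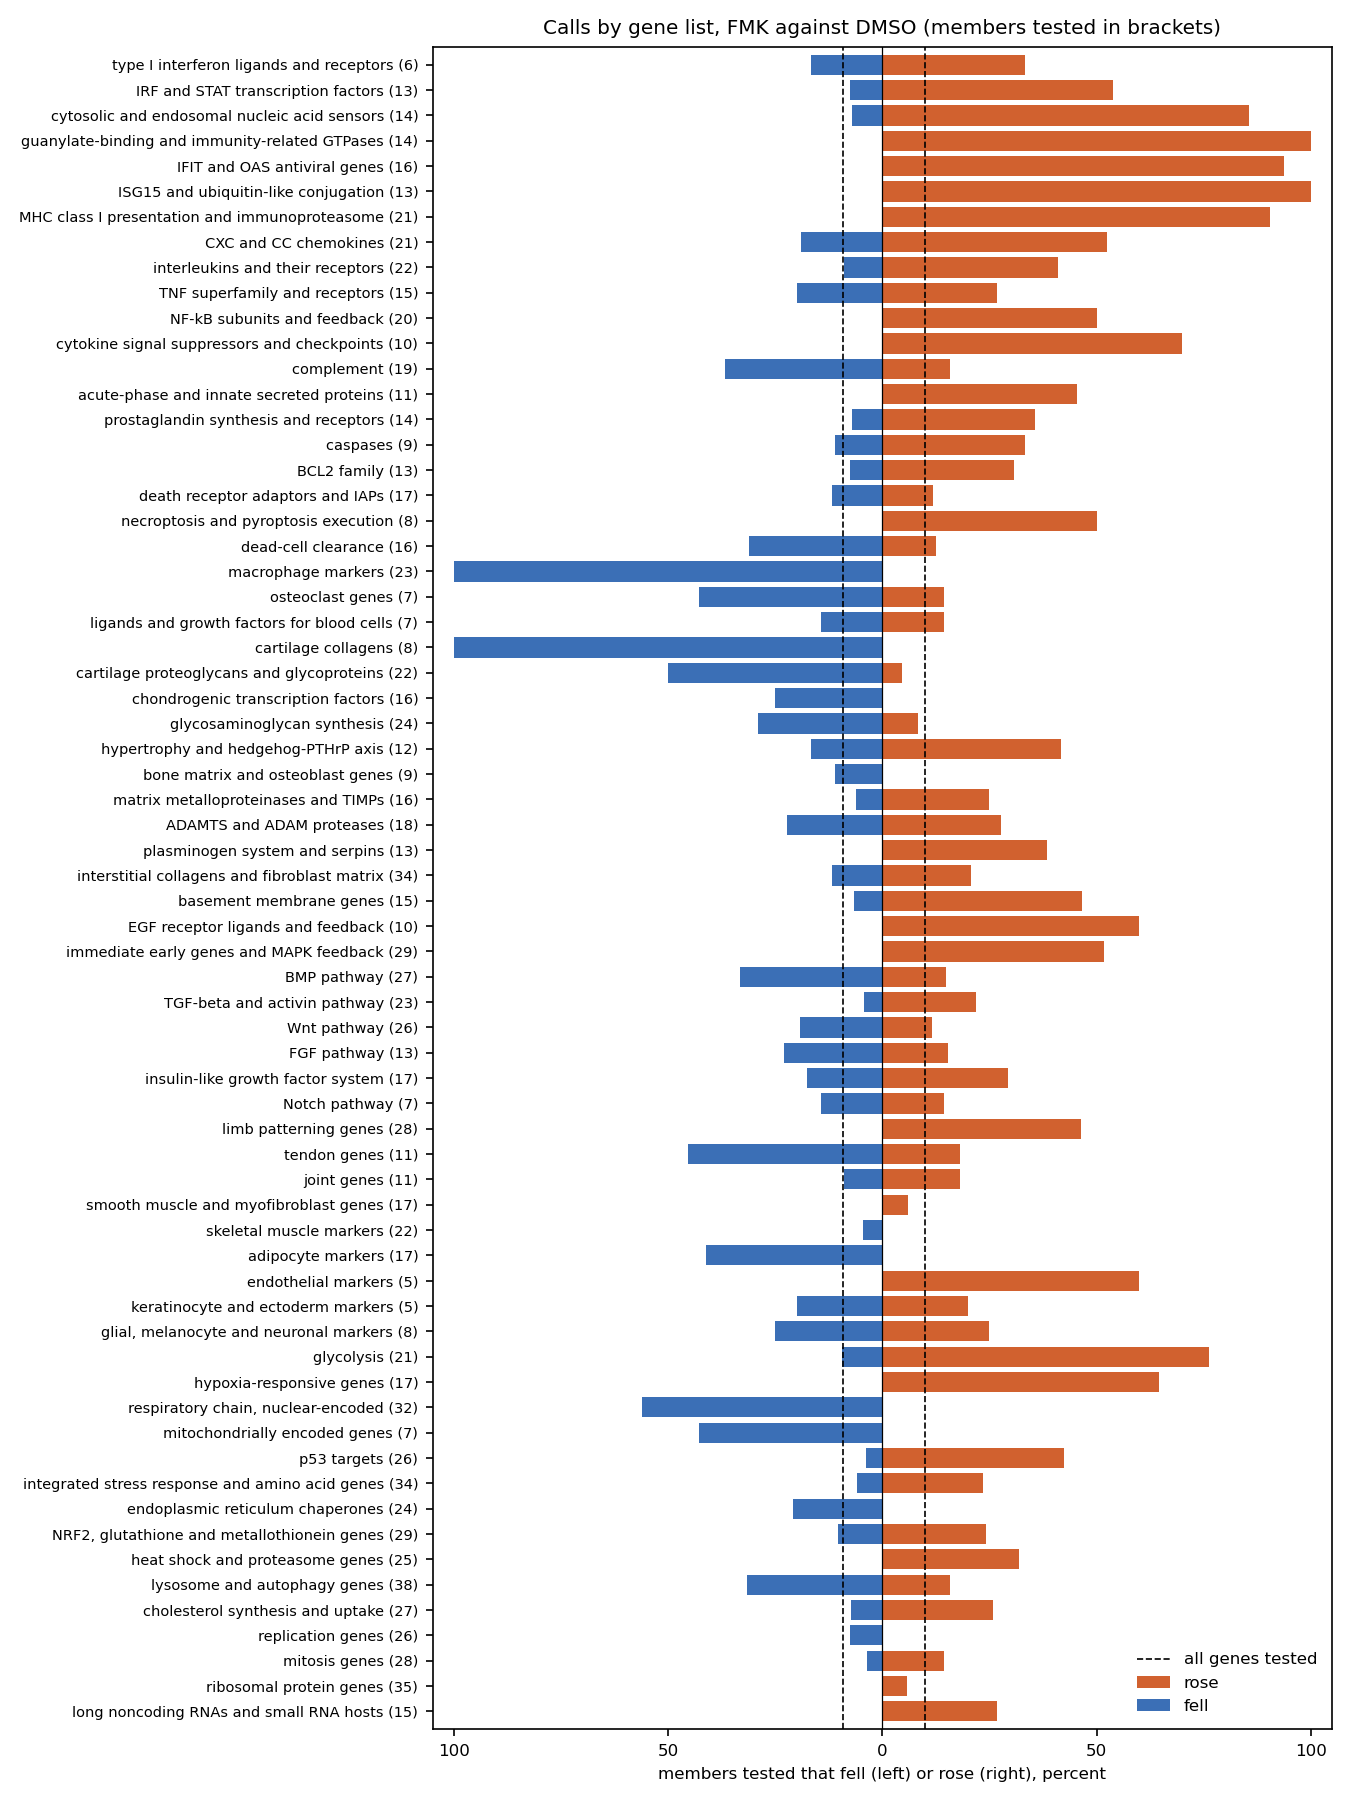
Percent of the members tested that rose (orange, right) or fell (blue, left) for each gene list with at least 5 members tested, given in brackets, with dashed lines at the shares over all genes tested, 9.85% and 9.15%. Interferon effector lists reach 90% or more on the right, macrophage markers and cartilage collagens 100% on the left.

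Stress and growth arrest genes rose in part. Of 26 p53 targets 11 rose and 1 fell. Cdkn1a, the kinase inhibitor p21, rose from 115, 110 and 154 CPM to 215, 255 and 333 CPM (1.08 ± 0.19, adjusted p = 0.00663), and Sesn1, another target, fell from 79.9, 75.5 and 59.1 CPM to 34.1, 29.8 and 21.5 CPM. The inhibitors Cdkn2a and Cdkn2b, which halt the cycle through RB, rose by 0.85 ± 0.11 and 0.93 ± 0.13. Replication genes gave 2 of 26 lower and none higher, the falls near the share over all genes tested (9.15%). There were 4 lower under the block or without FMK replicate 3 and 0 lower without FMK replicate 1 or FMK replicate 2. Mitosis genes gave 4 of 28 higher and 1 lower, where 9.85% and 9.15% of all genes tested were. The fall was lost without DMSO replicate 2, DMSO replicate 3, FMK replicate 1 or FMK replicate 2. Of 34 integrated stress response and amino acid genes 8 rose, 2 fell and 24 were not called, with a median log2 fold change of 0.15. None of the falls was called without DMSO replicate 1, FMK replicate 1 or FMK replicate 2, and 1 was without DMSO replicate 2 or DMSO replicate 3. Ddit3, the stress factor CHOP, rose from 153, 153 and 143 CPM to 280, 317 and 317 CPM (1.02 ± 0.09, adjusted p = 1.49e-06), and Atf3 by 2.65 ± 0.22. Of 24 chaperones of the endoplasmic reticulum 5 fell and none rose (9 with the block, 8 with all 9 libraries in the fit, 12 with library size alone, 2 or 3 without DMSO replicate 1, DMSO replicate 2, FMK replicate 1 or FMK replicate 2).

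The heat shock genes Hspa1a and Hspa1b were among the larger rises outside the interferon group. Hspa1a stood at 1.84, 3.17 and 1.14 CPM against 59.8, 80.1 and 42.1 CPM (4.89 ± 0.36, adjusted p = 1.83e-05), and Hspa1b at 10.3, 13.2 and 10.9 CPM against 74.5, 81.7 and 44.1 CPM. They are near-identical copies, so how reads divided between them is uncertain. In the antioxidant list 7 of 29 rose and 3 fell, with Srxn1, a sulfiredoxin, at 0.91 ± 0.12. Of 38 lysosome and autophagy genes 6 rose and 12 fell. Npc2, which carries cholesterol in the lysosome, rose from 666, 616 and 628 CPM to 1404, 1664 and 1284 CPM (1.19 ± 0.09, adjusted p = 5.34e-07), and Sqstm1, an autophagy receptor, by 0.86 ± 0.09. Ctss, a cathepsin that is also on the macrophage list, fell from 159, 171 and 80.3 CPM to 5.50, 3.99 and 4.55 CPM. The part of the macrophage transcripts in the 12 falls was not tested.

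Most calls lay outside the lists: 1937 of 2444 genes. Among them the 2 with the smallest p that rose were Ly6e, a surface protein that restricts viruses, from 281, 236 and 225 CPM to 2446, 2466 and 2148 CPM (3.25 ± 0.10, adjusted p = 4.17e-11), and Ifitm3, which blocks viral entry, from 790, 722 and 854 CPM to 3950, 4274 and 4095 CPM. Ly6a rose from 47.5, 36.3 and 38.6 CPM to 1144, 1180 and 890 CPM. The 10 of smallest p in this direction also held Ifi35, Helz2, Shisa5, Zc3hav1, Slfn2, Tspo and Xaf1, at 1.79 to 3.95 on the log2 scale. Of the 10 that fell, Cadm1, an adhesion molecule, went from 62.5, 80.7 and 79.1 CPM to 13.1, 14.3 and 16 CPM (-2.36 ± 0.15, adjusted p = 4.79e-08), and Cpz, a carboxypeptidase of the matrix, from 56.4, 42.5 and 38.5 CPM to 6.14, 3.68 and 5.28 CPM. Sirpa, the receptor of Cd47, fell from 199, 218 and 162 CPM to 49.6, 49.3 and 44.3 CPM while Cd47 rose from 325, 346 and 364 CPM to 645, 630 and 550 CPM. The other 7, Lcp1, Nckap1l, Nrros, Ptpn6, Coro1a, Pld4 and Cyth4, fell by 5.03 or more on the log2 scale.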

How the data were processed

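The authors deposited a table of raw read counts per gene and library, whole numbers with no normalization; per the labels the libraries were made with a 3′ kit (QuantSeq). The submitters' processing notes name cutadapt, STAR, DESeq2, FastQC and MultiQC and the build mm10, and the counting program, annotation and use of strand behind the counts were not stated there or in the labels. Without strand, reads of a gene and an overlapping antisense partner cannot be told apart. The authors' deposited log2 fold changes and adjusted p-values served only as a check: 2350 of the 2444 genes called here were called in the same direction in the authors' deposited table, and 0 in the opposite one. Of 52550 genes, 12862 passed filterByExpr (minimum count 10) and were tested on the 6 libraries with edgeR 4.0.16 in R 4.3.3 (TMM scaling, robust quasi-likelihood test, Benjamini-Hochberg adjustment, threshold 0.05). The 99 spike-in rows held 0 counts and were left out. CPM values are counts scaled to the library total of the genes tested, multiplied by the TMM factor of the library. These factors were 1.033 to 1.045 with DMSO and 0.9552 to 0.9724 with FMK. SE is that of the log2 fold change. Counting intervals (95%) and floors (3 counts over a group) cover counting error only, since reads carried no molecular identifiers that were counted. Same-numbered FMK and DMSO libraries correlated in their deviations from the group means at 0.245, 0.118 and 0.262 over the genes tested. Each was over 0.1, so the numbers were taken to pair the samples. The main fit nevertheless held no replicate block, so the main counts, SE and adjusted p-values ignore this pairing. The block entered only as an alternative. Alternatives were RLE and library-size scaling, 3 other low-count filters, all 9 libraries in the fit, DESeq2 1.42.0, limma-voom (limma 3.58.1), the replicate block, replicates 1 and 2 alone, and each library left out. Genes were named by fixed rules: the largest changes in fold and in CPM, the smallest p over all genes, over each list and outside the lists, and a set named whatever its values. Genes beyond these rules were chosen after their values were seen. Among them were Aldoc, Pfkm, Pf4, Psmb8, Tlr7, Ccl3, Ccl12 and Cxcl16. Others were untested genes given by their counts and some of the genes named in runs of neighbours. The gene lists and the members of the comparison were chosen with earlier results of these data known. Results for some genes are not reported here.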

Additional observations from a re-analysis of the deposited data

How the results depend on the processing

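Library size as the only scaling gave 935 genes that rose and 1771 that fell, against 1267 and 1177. Leaving out 1 library gave 888 to 1243 that rose and 798 to 1166 that fell, 417 to 549 that rose at least 2-fold and 428 to 595 that fell at least 2-fold. The replicate block gave 1702 that rose and 1591 that fell; 9 called genes were not called with it and none changed sign. Among the genes named in the text the block ended the call of Prg4 (adjusted p = 0.108), gave a call to Calr, and changed no other call. Of the 2444 called genes, 725 that rose and 570 that fell were called under every alternative that tested them. The filter at 1 CPM in 3 libraries proved looser than the one used, with 13554 genes tested, so a filter at 5 CPM (10915 genes) was added after seeing the data. Counts of 73 of 134 list and direction pairs moved by over 1.5 times in at least 1 alternative, and the cause was not tested. At these depths 13.3% of genes under 5 CPM were called against 31.0% at 100 CPM or more, so a gene of few counts that was not called may still differ.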

Other observations

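Called genes that lie next to each other among the genes tested and moved the same way formed runs of 5 or more. Not every run was of 1 gene family. On chromosome 16 a run of 5 from Itsn1 to Smim11 fell with a median of -0.608. A run of 5 on chromosome 17 from Wdr43 to Lclat1 rose with a median of 0.537, and Pdlim5 lay in the run of Gbp genes on chromosome 3. Some of the runs of immune gene families follow. On chromosome 1 (173723427 to 173982744, GRCm38) 7 neighbours from Ifi207 to Ifi202b, interferon-inducible DNA-binding proteins, rose with a median log2 fold change of 3.78. The Ifi207 call was lost without DMSO replicate 1 (adjusted p = 0.0504). On chromosome 5 (120730333 to 120907521) 6 Oas genes rose with a median of 4.44, and on chromosome 17 (35262730 to 35443773) 5 genes from H2-D1 to H2-Q7 rose with a median of 4.62. On chromosome 6 (122921848 to 123275265) 5 genes of the Clec4 family, lectin receptors of myeloid cells, fell with a median of -6.09. These families hold near-identical copies, so reads may have been divided among neighbours.

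The imprinted genes H19 and Igf2, which are neighbours, were both higher with FMK. H19, a noncoding RNA, stood at 9565, 7961 and 12754 CPM against 16936, 16593 and 18859 CPM (log2 fold change 0.79 ± 0.18, adjusted p = 0.0301 by edgeR's quasi-likelihood test). Igf2, a growth factor, stood at 6153, 5405 and 7658 CPM against 9263, 8856 and 9288 CPM (0.51). Neither pair of groups overlapped, and 18.1% of all genes tested were likewise higher with FMK without overlap. The H19 call was lost without DMSO replicate 1 or any 1 FMK library and with no low-count filter (0.0558 to 0.126), and that of Igf2 without FMK replicate 3 (0.0571).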
